A study of Mus musculus with 8 samples.

Results

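Single-nucleus RNA-seq data of mouse kidney were examined for 7 genes of the WNK-SPAK kinase pathway, which were taken by gene symbol from the 32285 annotated features. They were 4 kinases, Wnk1, Wnk4, Stk39 (which encodes SPAK) and Oxsr1 (OSR1), and 3 parts of ubiquitin ligases, Klhl3, Cul3 and Nedd4l. All 7 were protein-coding, each matched 1 feature, and all were detected. Kidneys came from male C57BL/6J mice collected at 2 zeitgeber times, ZT4 in the light phase and ZT16 in the dark phase. Ctrl mice were Bmal1 lox/lox. Their cKOt littermates were Bmal1 lox/lox/Pax8-rtTA/LC-1, in which the Pax8 promoter drives a doxycycline-dependent activator of Cre in renal tubules, so that vascular, stromal and immune cells are not targeted. Mice of both genotypes, the controls included, drank doxycycline at 2 mg/ml for 2 weeks from 8 weeks of age and were killed at 14 weeks. Each of the 4 groups (Ctrl ZT4, Ctrl ZT16, cKOt ZT4, cKOt ZT16) had 2 libraries, 1 mouse each, so the spread between replicates is known from 2 values per group.

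WNK kinases sense intracellular chloride and potassium intake and phosphorylate SPAK and OSR1, which in turn phosphorylate and activate cation-chloride cotransporters. In the distal convoluted tubule the main target is the thiazide-sensitive sodium-chloride cotransporter NCC, encoded by Slc12a3, and in the thick ascending limb it is NKCC2, encoded by Slc12a1. KLHL3 is the adaptor through which the CUL3 ubiquitin ligase binds WNK kinases and marks them for degradation, and mutations in WNK1, WNK4, KLHL3 and CUL3 cause a familial form of hypertension with high plasma potassium. NEDD4-2, the product of Nedd4l, is a separate ubiquitin ligase that removes the epithelial sodium channel (subunits Scnn1a, Scnn1b and Scnn1g) from the cell surface and is inhibited by the aldosterone-induced kinase SGK1. In the distal convoluted tubule Wnk1 is transcribed mostly from an internal start that gives a short form without kinase activity (KS-WNK1). Gene-level counts do not separate this form from full-length Wnk1.

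Of 82784 barcodes, 81391 nuclei were kept, 8758 to 10975 per library, and libraries held between 36548873 and 54500820 unique molecular identifiers (UMIs). Nuclei were clustered on protein-coding genes, and 75988 of them (93.362%) fell into 21 classes named by marker genes. None of the 7 genes was a marker. Levels are given for the 20 classes with at least 10 nuclei in every library, in CPM, the UMIs of a gene scaled by all protein-coding UMIs of that class in that library. Marker levels followed the labels: in Ctrl, Slc34a1 averaged 6456 CPM in nuclei like the proximal convoluted tubule (PCT) and 662 or less in the other classes, Slc12a1 was at 22440 CPM in thick ascending limb (TAL)-like nuclei, and Slc12a3 was at 24830 CPM in DCT1-like and 11840 CPM in DCT2-like nuclei, the early and late distal convoluted tubule. Scnn1b was highest in connecting tubule (CNT)-like nuclei at 1155 CPM, and Aqp2 in principal cells of the medullary (MCD) and cortical (CCD) collecting duct at 1769 and 1116 CPM. Slc12a3 still averaged 63.4 to 330 CPM in the classes outside the distal convoluted tubule. In some classes it was uneven between libraries, as in alpha-intercalated nuclei with 330 ± 327.5 CPM. The part of free RNA, of doublets and of misassigned nuclei in such low levels was not tested. The counts of Arntl (Bmal1) could not be limited to the deleted exon and therefore do not check the knockout: in PCT-like nuclei they were 12.1 and 14.8 CPM in Ctrl ZT4 but 214 to 326 CPM in the 4 cKOt libraries. The Ctrl ZT16 libraries were far above those of Ctrl ZT4 and nearer to cKOt, with values given further on among the flagged results. Dbp, a direct BMAL1 target, was used as readout, and in PCT-like nuclei it was at 45.1 and 27.0 CPM in Ctrl ZT4 and at 1.20 and 2.31 CPM in cKOt ZT4. At ZT16 it was at 2.38 and 1.72 CPM in Ctrl and at 1.10 and 1.54 CPM in cKOt. Of 16 combinations of Dbp and Nr1d1, another BMAL1 target, with the 8 tested units described further on, 6 were lower in cKOt at ZT4 (edgeR, adjusted p under 0.05), 0 of 8 passed at ZT16, and 3 of 16 were lower averaged over the times. In DCT1-like, DCT2-like and CNT-like nuclei Dbp did not pass at ZT4, with log2 differences of -2.43 ± 0.58, -2.77 ± 0.79 and -2.08 ± 0.68.

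Wnk1, Wnk4 and Klhl3 carried most of the results, and the start of each gene is therefore shown first. The windows run from 250 bases before to 50 bases after the RefSeq gene start in build GRCm38.p6, and capitals mark GC boxes (GGGCGG on either strand). The kidney-specific start of Wnk1 lies inside the gene, outside this window.
Wnk1, chr6:120038606-120038905, minus strand: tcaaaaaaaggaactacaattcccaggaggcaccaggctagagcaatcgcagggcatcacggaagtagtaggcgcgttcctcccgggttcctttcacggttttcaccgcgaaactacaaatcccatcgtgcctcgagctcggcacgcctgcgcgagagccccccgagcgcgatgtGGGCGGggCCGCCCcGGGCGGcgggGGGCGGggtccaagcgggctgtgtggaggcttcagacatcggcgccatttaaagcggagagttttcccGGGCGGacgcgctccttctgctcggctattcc
Wnk4, chr11:101260317-101260616, plus strand: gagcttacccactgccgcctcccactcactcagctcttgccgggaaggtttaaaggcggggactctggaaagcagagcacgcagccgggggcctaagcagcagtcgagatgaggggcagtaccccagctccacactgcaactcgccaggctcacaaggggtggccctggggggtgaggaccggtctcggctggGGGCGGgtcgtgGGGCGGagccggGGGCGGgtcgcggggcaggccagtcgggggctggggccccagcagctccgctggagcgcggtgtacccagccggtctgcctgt
Klhl3, chr13:58113598-58113897, minus strand: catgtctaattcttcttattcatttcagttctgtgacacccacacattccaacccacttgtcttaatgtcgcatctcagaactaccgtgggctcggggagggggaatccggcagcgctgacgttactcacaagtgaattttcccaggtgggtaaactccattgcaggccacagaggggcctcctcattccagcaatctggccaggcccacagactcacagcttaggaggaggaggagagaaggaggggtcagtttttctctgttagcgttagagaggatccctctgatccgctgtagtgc
The Wnk1 window held 5 GC boxes and the Wnk4 window 3, with GC contents of 63.7% and 70.7%. The Klhl3 window held none, and its GC content of 52.3% was close to the median of 52.7% over 32851 such windows. A window was found for 6 of the 7 genes, and GGGCGG was in those of Wnk1, Wnk4, Stk39, Oxsr1 and Cul3, against 35.7% of all windows. The E-box CACGTG, which CLOCK and BMAL1 bind, was in 7.15% of all windows and in 0 of the 6, the E-box-like CACGTT in 4.69% and only in Cul3, the D-box TTATGTAA in 0.938% and in none of the 6, and the glucocorticoid half-site AGAACA in 19.0% and in none of the 6. All motifs were searched on both strands, and a missing match says only that these letters are not in this window.

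Wnk1, the kinase at the top of the cascade, was expressed in every class and stood out in the distal convoluted tubule. DCT2-like nuclei had the highest mean in Ctrl, 7519 ± 426 CPM (SD, n = 4), followed by DCT1-like nuclei with 6348 ± 837 CPM. Single Ctrl libraries were at 7076 and 7363 CPM (ZT4) and 7551 and 8086 CPM (ZT16) in DCT2-like, and at 5652, 7565, 6069 and 6105 CPM in DCT1-like nuclei. The ranges of these 2 classes overlapped, so their order is not set beyond the spread, although DCT2 was the highest class in 6 of 8 libraries. A gap followed: CNT-like nuclei had 1540 ± 391 CPM, with no overlap with DCT1. CNT-like, myeloid (1426 ± 91.9 CPM) and macula densa-like (1413 ± 756 CPM) nuclei overlapped, the last resting on 11 to 33 nuclei per library. From TAL-like nuclei (794 ± 111 CPM) down, each class overlapped its neighbour. CCD-like nuclei came last with 275 ± 37.0 CPM, 27.3-fold below DCT2, and were the lowest class in 7 of 8 libraries. In cKOt the corresponding means were 7043 ± 638 CPM in DCT2-like, 6343 ± 641 CPM in DCT1-like, 1871 ± 504 CPM in CNT-like and 309 ± 64.7 CPM in CCD-like nuclei.

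**Figure D1:**
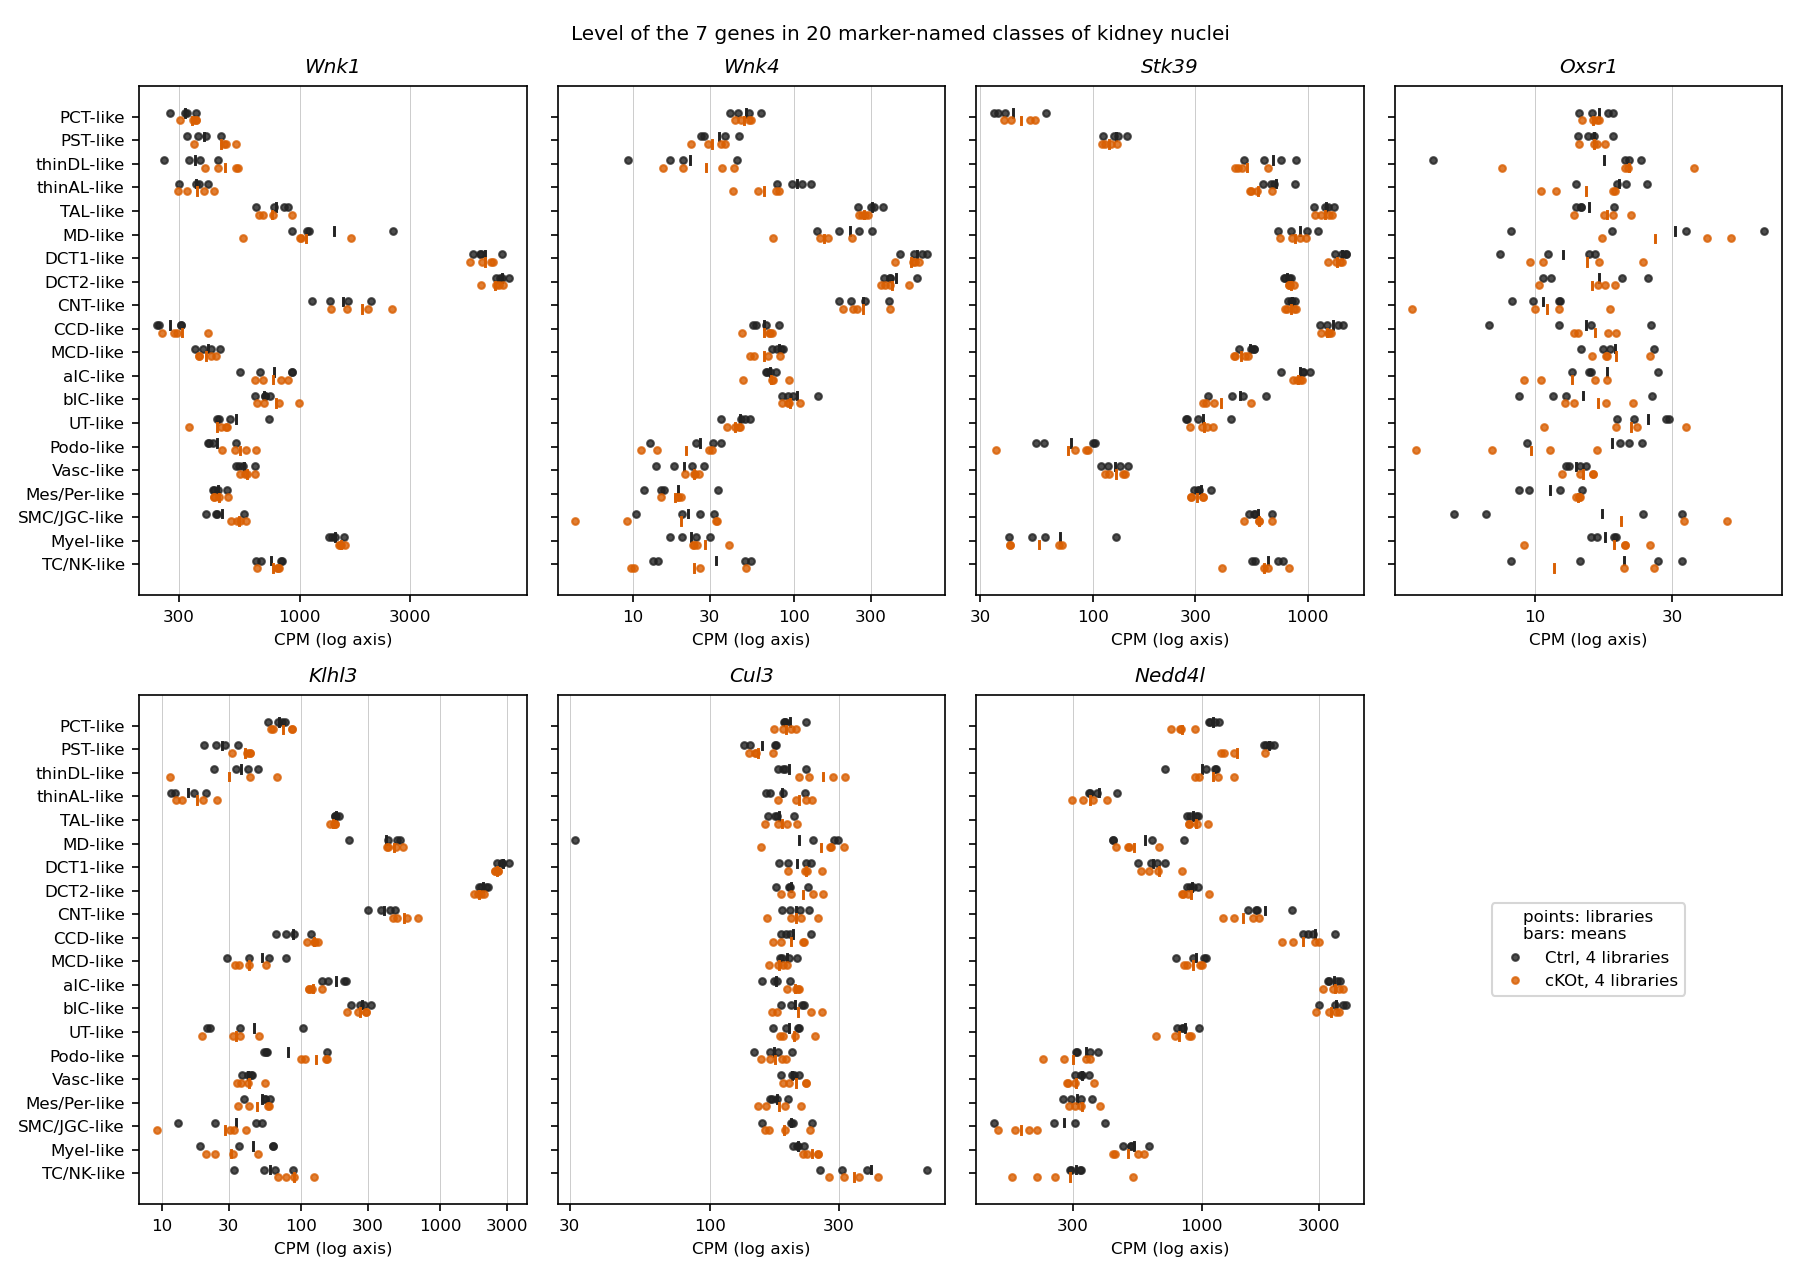
Level of each of the 7 genes (x axis, CPM, log axis) in 20 marker-named classes of nuclei (y axis), with 1 point per library and a bar for the mean of the 4 Ctrl (black) and 4 cKOt (orange) libraries. Wnk1, Wnk4 and Klhl3 peak in DCT1-like and DCT2-like nuclei, Nedd4l in intercalated and CCD-like nuclei, and Cul3 and Oxsr1 have the narrowest ranges between class means (2.55-fold and 2.90-fold); 6 library values of 0 (5 of Oxsr1, 1 of Klhl3) cannot be drawn on a log axis.

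Wnk4, the kinase that chloride inhibits most strongly, was also highest in the distal convoluted tubule. Its mean in DCT1-like nuclei was 575 ± 95.5 CPM in Ctrl, with 622 and 554 CPM in the ZT4 libraries and 672 and 451 CPM in the ZT16 libraries. DCT1 was the highest class in 8 of 8 libraries. DCT2-like nuclei followed with 432 ± 98.2 CPM, overlapping DCT1, and TAL-like nuclei with 303 ± 43.8 CPM, which did not overlap DCT2. TAL, CNT (269 ± 86.0 CPM) and macula densa (221 ± 71.8 CPM) overlapped one another in turn. All other classes averaged 104 CPM or less, down to 19.0 CPM in nuclei like mesangial cells and pericytes, 30.2-fold below DCT1. Wnk4 in CCD-like nuclei (65.5 ± 11.4 CPM) was close to that in PCT-like nuclei (50.3 ± 9.86 CPM), and these neighbours overlapped.

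Stk39, the kinase that directly phosphorylates NCC and NKCC2, had a different distribution. The top was shared by 3 classes, DCT1-like nuclei with 1446 ± 77.5 CPM, CCD-like nuclei with 1307 ± 143 CPM and TAL-like nuclei with 1211 ± 104 CPM, each overlapping the next. In DCT1-like nuclei the ZT4 libraries of Ctrl held 1442 and 1505 CPM and the ZT16 libraries 1338 and 1500 CPM, and in CCD-like nuclei 1235, 1387, 1145 and 1462 CPM. DCT1 ranked first in 7 of 8 libraries. DCT2-like (803 ± 28.3 CPM) and CNT-like nuclei (840 ± 27.9 CPM) formed a dip between DCT1 and CCD, with every Ctrl library below every Ctrl library of either. Proximal nuclei were lowest, at 128 ± 13.3 CPM in the straight (PST) and 42.7 ± 12.2 CPM in the convoluted part, 33.9-fold below DCT1.

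Oxsr1, the close relative of Stk39, was sparse and had a narrow range. Class means in Ctrl ran from 10.6 ± 1.89 CPM in CNT-like to 30.9 ± 23.8 CPM in macula densa-like nuclei, a 2.90-fold range, and all 19 neighbours in the order overlapped. The counts behind these values were 4 to 7 UMIs per Ctrl library in CNT-like nuclei and 1 or 2 UMIs in macula densa-like nuclei. Macula densa was the highest class in 4 of 8 libraries and CNT the lowest in 0 of 8, and without Ctrl ZT4 replicate 1, where 2 UMIs in 11 nuclei gave 63.0 CPM, the macula densa mean was 20.1 ± 12.8 CPM and another class ranked first. Classes further apart in the order could still be separate: the CNT-like values of Ctrl (8.30 to 12.3 CPM) lay below those of all Ctrl libraries in PCT-like nuclei (14.2 to 18.7 CPM). Summed over all nuclei, where a lower share of a class and less RNA per nucleus cannot be told apart, Oxsr1 was at 15.3 and 16.6 CPM in Ctrl ZT4, 16.7 and 14.5 CPM in Ctrl ZT16, 16.2 and 16.6 CPM in cKOt ZT4, and 17.0 and 14.4 CPM in cKOt ZT16.

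Among the ubiquitin ligase parts, Klhl3 was the most restricted of the 7 genes. DCT1-like nuclei held 2554 and 2783 CPM in Ctrl ZT4 and 3109 and 2787 CPM in Ctrl ZT16, a mean of 2808 ± 228 CPM. DCT2-like nuclei followed with 2039 ± 137 CPM (2120, 2185, 1889 and 1962 CPM), with no overlap. Another gap led to macula densa-like (409 ± 131 CPM) and CNT-like nuclei (395 ± 74.6 CPM), which overlapped, and then to beta-intercalated (273 ± 36.4 CPM) and TAL-like nuclei (179 ± 6.07 CPM), which did not. At the other end were nuclei like the thin ascending limb with 15.4 ± 4.23 CPM, 183-fold below DCT1. DCT1 was highest in 8 of 8 libraries. The cKOt means were 2530 ± 61.9 CPM in DCT1-like and 1898 ± 132 CPM in DCT2-like nuclei.

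Cul3, the scaffold of the ligase, had the narrowest range of class means, 2.55-fold. The means of 19 classes lay between 156 ± 22.0 CPM (PST) and 214 ± 124 CPM (macula densa), and T and natural killer (TC/NK)-like nuclei, with 396 ± 170 CPM, were the highest class in 6 of 8 libraries. All 19 neighbours overlapped. TC/NK, at 256 to 639 CPM in the Ctrl libraries, overlapped its neighbour macula densa, at 31.5 to 297 CPM with 1 UMI behind the lowest value, but lay above all Ctrl libraries of the PCT, DCT1 and PST classes. DCT1-like nuclei had 209 ± 26.5 CPM and PCT-like nuclei 198 ± 19.0 CPM.

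Nedd4l was higher in intercalated and CCD-like nuclei than in those like the distal convoluted tubule. Intercalated cells were highest, with 3539 ± 381 CPM in the beta and 3449 ± 186 CPM in the alpha type, followed by CCD-like nuclei with 2903 ± 406 CPM. These 3 classes overlapped in turn and did not overlap the next. PST-like (1875 ± 78.0 CPM) and CNT-like nuclei (1812 ± 359 CPM) came next, ahead of PCT-like nuclei (1116 ± 50.0 CPM). The 2 distal convoluted classes ranked low, DCT2 with 914 ± 38.1 CPM and DCT1 with 636 ± 65.0 CPM. The lowest mean, 277 ± 110 CPM, was that of nuclei like smooth muscle and juxtaglomerular cells, 12.8-fold below the top. Because the top classes overlapped, beta-intercalated nuclei ranked first in only 2 of 8 libraries.

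Finer clusters resolved the profile between DCT1 and the collecting duct. They were put in order by falling Slc12a3, an order that also follows the class names along the tubule, as cluster 13 (DCT1-like), clusters 11.2 and 11.1 (both DCT2-like), the larger CNT-like cluster and cluster 15 (CCD-like). Slc12a3, which fixed the order, went from 24830 to 21530, 3068, 104 and 69.6 CPM in Ctrl, and Scnn1b from 30.6 to 287, 723, 1157 and 724 CPM. Wnk1 was highest not at the start but in cluster 11.2, where Slc12a3 was still high: 6348 ± 837, 8906 ± 318, 6459 ± 1194, 1619 ± 434 and 275 ± 37.0 CPM. Wnk1 in cluster 11.1 overlapped that in DCT1-like nuclei, whereas Slc12a3 in these clusters did not overlap. Klhl3 stayed level between the first pair of clusters (2808 and 2806 CPM) and then went to 1396, 412 and 87.5 CPM. Wnk4 went from 575 to 475, 414, 277 and 65.5 CPM, with neighbouring clusters overlapping down to the CNT-like one. Nedd4l went up along this order, from 636 to 793, 1021, 1750 and 2903 CPM. Stk39 had its dip in the 3 middle clusters, with 832, 792 and 835 CPM between 1446 and 1307 CPM. The 7 genes were left out when the variable genes for the clusters were chosen. These differences are a description and were not tested.

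**Figure D2:**
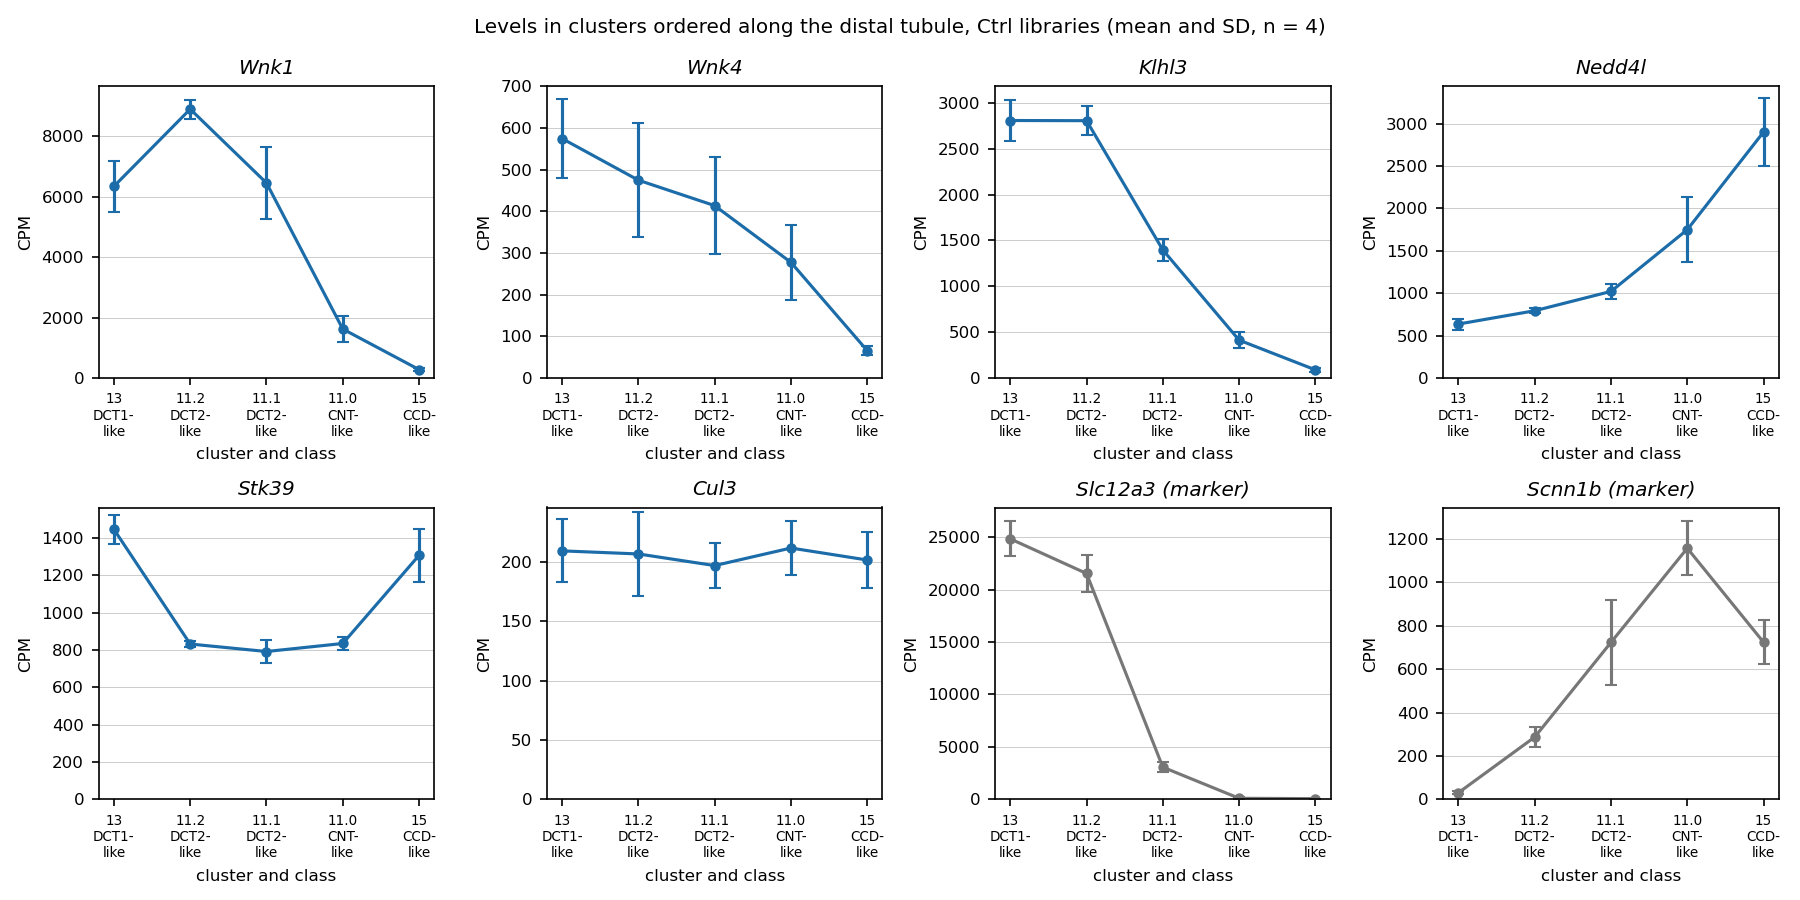
Mean level in CPM (y axis, from 0) with SD over the 4 Ctrl libraries in 5 clusters ordered from DCT1-like to CCD-like (x axis), for 6 of the genes and for the markers Slc12a3 and Scnn1b (grey). Wnk1 peaks in cluster 11.2 at 8906 CPM, Klhl3 and Wnk4 go down towards the collecting duct, Nedd4l goes up to 2903 CPM, Stk39 dips in the middle and Cul3 is level.

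Across the 20 classes, log2(CPM + 1) of the 7 genes correlated to different degrees. The classes share libraries and clustering, so the coefficients only describe likeness. Pearson's r was 0.867 between Wnk1 and Klhl3, 0.824 between Wnk4 and Klhl3 and 0.701 between Wnk1 and Wnk4. Wnk4 and Stk39 had r = 0.607, Wnk1 and Stk39 r = 0.329, and Cul3 and Nedd4l were lowest at -0.266. Of the 21 pairs, 13 were above 0. Among 13334 protein-coding genes with at least 10 CPM in some class, the pattern of Wnk1 was most like those of Tsc22d2 (r = 0.916), Tsc22d1 (0.901) and Lrrc52 (0.883). Tsc22d2 and Tsc22d1 encode proteins known to bind WNK kinases or to join them in condensates, and both were on a list of pathway genes used below. Wnk4 was most like Cntd1 (0.922), Kctd1 (0.913) and Spag6l (0.909), Klhl3 like Tdrd3 (0.895), Spag6l (0.882) and Capn6 (0.880), and Stk39 like Ccdc136 (0.910), Grik5 (0.882) and Ago1 (0.872). Nedd4l was most like Rab17 (0.875), Tacc2 (0.820) and Dact2 (0.819). The best matches of Oxsr1 were Pym1 (0.814), Polr3g (0.778) and Oard1 (0.760), all highest in macula densa-like nuclei, where the level of Oxsr1 rested on few UMIs. Those of Cul3 were Vmn2r84 (0.905), Cxcr3 (0.904) and Klrc2 (0.901), all highest in TC/NK-like nuclei.

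The design asked whether levels changed between ZT4 and ZT16 in each genotype, and between genotypes at each time. Counts were summed per library over all nuclei and over 7 classes (PCT, TAL, DCT1, DCT2, CNT, CCD and vascular), which gave 56 combinations of gene and unit, all of them testable, in edgeR's quasi-likelihood test with Benjamini-Hochberg adjustment over all genes of a unit. Between 404965 and 18185023 protein-coding UMIs stood behind a unit in 1 library.

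In Ctrl, none of the 56 combinations passed an adjusted p of 0.05 between ZT16 and ZT4 in edgeR's quasi-likelihood test. The lowest adjusted p was 0.133, for Wnk1 in CNT-like nuclei, 4 combinations had an unadjusted p under 0.05 (that one and Wnk4 in vascular, DCT2-like and CNT-like nuclei), and DESeq2 called 0. Over all genes and units 10115 of 96393 tests had an unadjusted p under 0.05 in edgeR. Over all genes the share called was 0.148% in all nuclei, 0.458% in PCT, 1.15% in TAL, 0.843% in DCT1, 0.736% in DCT2, 0.468% in CNT, 0.345% in CCD and 0.521% in vascular nuclei. The size of change was small, with a median absolute log2 fold change of 0.12 and 53 of 56 below 0.5. The median SE was 0.17 on the log2 scale.

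In cKOt, 1 of the 56 combinations passed between ZT16 and ZT4: Wnk1 in CNT-like nuclei. In edgeR 6 combinations had an unadjusted p under 0.05, against 8204 of 96656 tests over all genes and units. They were Wnk1, Wnk4 and Klhl3 in CNT-like, Wnk4 in DCT2-like, Klhl3 in PCT-like and Nedd4l in CCD-like nuclei. Over all genes 0% were called in all nuclei and 0% in PCT, 0.545% in TAL, 0.131% in DCT1, 0.236% in DCT2, 0.783% in CNT, 0.0953% in CCD and 0.196% in vascular nuclei. Wnk1 in CNT-like nuclei was at 1600 and 1373 CPM in cKOt ZT4 and at 2525 and 1985 CPM in cKOt ZT16. In Ctrl it was at 1358 and 1134 CPM (ZT4) and at 1627 and 2042 CPM (ZT16). In both genotypes both ZT16 libraries lay above both ZT4 libraries, and all 4 ZT16 libraries lay above all 4 ZT4 libraries. The difference was 0.69 ± 0.17 (SE) on the log2 scale in cKOt, with an adjusted p of 0.0390 in edgeR's quasi-likelihood test, and 0.60 ± 0.17 with an adjusted p of 0.133 in Ctrl. The difference between the 2 genotypes' time differences was 0.10 ± 0.24 (adjusted p = 0.994, edgeR), so Wnk1 was not shown to respond to time differently in the 2 genotypes. The omission of 1 of the 2 libraries of a group leaves a lone library, which the fit assumes to vary like the other groups. On that assumption the call in cKOt was lost without cKOt ZT4 replicate 2, cKOt ZT16 replicate 1 or cKOt ZT16 replicate 2, where the adjusted p reached 0.542. With all libraries it was lost with library totals in place of TMM scaling (0.0715) and in DESeq2 (0.0501).

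A contrast of ZT16 with ZT4 averaged over both genotypes was added after the data had been seen. It called 2 of the 56 combinations, both in CNT-like nuclei. In edgeR 8 combinations had an unadjusted p under 0.05, against 13893 of 99360 tests over all genes and units. Besides the 2 called ones they were Wnk4 in DCT2-like and vascular, Klhl3 in CNT-like and PCT-like, and Nedd4l in CCD-like and CNT-like nuclei. For Nedd4l in CCD-like nuclei the log2 difference was -0.32 ± 0.10 (adjusted p = 0.174, edgeR). Over all genes this contrast called 0.544% in all nuclei, 0.874% in PCT, 3.5% in TAL, 1.93% in DCT1, 2.05% in DCT2, 2.06% in CNT, 0.736% in CCD and 1.8% in vascular nuclei. Wnk1 rose by 0.65 ± 0.12 on the log2 scale (adjusted p = 0.00136, edgeR quasi-likelihood), and passed in 15 of 15 alternatives within CNT-like nuclei with adjusted p of at most 0.0313, but not with DCT2-like and CNT-like nuclei summed (0.113). Wnk4, which was at 276 and 189 CPM in Ctrl ZT4, 232 and 202 CPM in cKOt ZT4, 387 and 225 CPM in Ctrl ZT16, and 395 and 245 CPM in cKOt ZT16, rose by 0.56 ± 0.16 (adjusted p = 0.0494). The Wnk4 values of the 2 replicates at ZT16 differed more than those at ZT4: replicate 1 of each genotype was above all ZT4 libraries, whereas replicate 2 of each lay within their range. The same 2 replicate 1 libraries were above their replicate 2 in other units as well, with 672 against 451 CPM (Ctrl) and 549 against 424 CPM (cKOt) in DCT1-like, 354 against 248 CPM and 287 against 254 CPM in TAL-like, and 134 against 97.7 CPM and 108 against 98.4 CPM in all nuclei. Wnk4 passed in 7 of 15 alternatives. It did not pass without Ctrl ZT16 replicate 1 (adjusted p = 0.451, edgeR), cKOt ZT16 replicate 1 (0.381), Ctrl ZT4 replicate 2 (0.250), cKOt ZT4 replicate 2 (0.199) or cKOt ZT4 replicate 1 (0.0555), nor with library totals (0.0996), with doublets removed (0.0501) or in DESeq2 (0.594). These tests include the values that prompted the contrast, and they treat the 4 libraries per time as independent. Libraries of the same replicate number deviated together between the genotypes, with r = 0.519 at ZT4 and 0.493 at ZT16 across 9824 genes, which are not independent replicates, so the adjusted p of this contrast may be too small.

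The 2 classes that share the boundary were also joined, after the data had been seen. Their nuclei came largely from a single cluster that was split in an extra step. With DCT2-like and CNT-like nuclei summed, none of the 7 genes passed in cKOt alone, where 0.438% of all genes did. Averaged over both genotypes, where 3.06% of all genes passed, Wnk4 rose by 0.50 ± 0.12 on the log2 scale (adjusted p = 0.0216, edgeR quasi-likelihood). Over 15 alternatives this rise ran from 0.35 to 0.61, and it passed in 9 of them. It did not pass with library totals. The call was also lost when certain single libraries were left out, replicate 1 of ZT16 in each genotype among them. In DCT2-like nuclei too, replicate 1 of each genotype at ZT16 was well above all ZT4 libraries. Replicate 2 of each was close to the highest ZT4 library there, so the size of the rise rested largely on replicate 1. Wnk1 did not pass in the summed nuclei, with a difference of 0.31 ± 0.10 (adjusted p = 0.113, edgeR). Within DCT2-like nuclei Wnk1 was at 7076 and 7363 CPM in Ctrl ZT4, 6138 and 7596 CPM in cKOt ZT4, 7551 and 8086 CPM in Ctrl ZT16, and 7353 and 7086 CPM in cKOt ZT16, and the ZT4 and ZT16 ranges overlapped. The finer clusters differed. In cluster 11.1, the later DCT2-like one, Wnk1 was at 4762 to 5563 CPM in the 4 ZT4 libraries and at 6701 to 7570 CPM in the 4 ZT16 libraries, with no overlap, while in cluster 11.2 it was at 7036 to 9684 CPM and 8019 to 8872 CPM. Wnk4 in cluster 11.1 was at 265 to 387 CPM at ZT4 and at 397 to 568 CPM at ZT16, also with no overlap. These cluster values were looked up after the result and not tested.

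Markers of neighbouring segments moved with these values. In CNT-like nuclei the summed level of the 11 CCD markers went from 3512-3739 CPM (Ctrl ZT4) to 4240-4878 CPM (Ctrl ZT16) and from 2946-3375 to 3788-4149 CPM in cKOt. The 10 CNT markers went from 31420-45260 to 45090-51070 CPM in Ctrl and from 22200-39930 to 64590-64940 CPM in cKOt. The 8 DCT2 markers, which share genes with the CNT list, went from 30830-44450 to 43760-50010 CPM in Ctrl and from 21790-39700 to 64000-64250 CPM in cKOt. In DCT2-like nuclei the CNT list summed to 82580 to 125200 CPM, so this sum is not particular to CNT-like nuclei. The 5 DCT1 markers went from 372-568 to 576-580 CPM in Ctrl but from 740-809 to 568-630 CPM in cKOt. None of these markers was at 0. The median UMI count per nucleus was 3004 to 4166 in the ZT4 and 3226 to 4830 in the ZT16 libraries, with 4063 and 4830 in replicate 1 of Ctrl ZT16 and cKOt ZT16. The part of the marker changes and of depth in the Wnk1 and Wnk4 values was not tested.

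**Figure D3:**
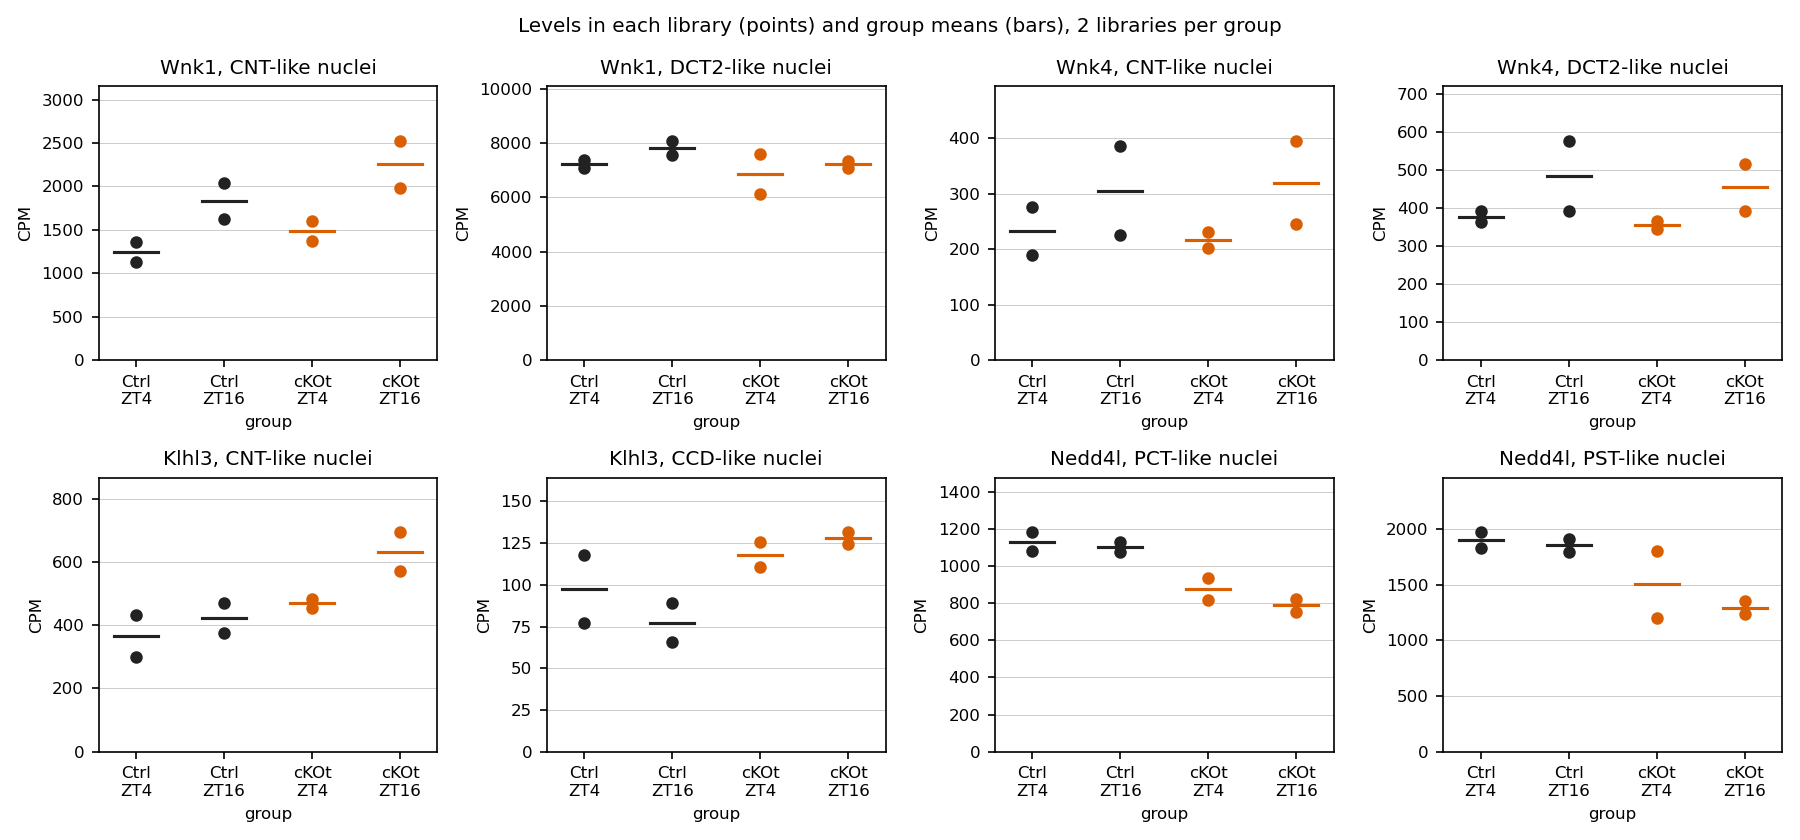
Level in each library (points, CPM, y axis from 0) and mean of each group (bars, 2 libraries per group) for 8 combinations of gene and class; Ctrl is black and cKOt orange. Wnk1 in CNT-like nuclei is above 1600 CPM in all ZT16 libraries, Wnk4 is high in 1 of the 2 ZT16 libraries of each genotype, and Nedd4l in PCT-like nuclei is lower in all 4 cKOt libraries.

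Between genotypes at ZT4, 0 of 56 combinations passed in edgeR's quasi-likelihood test and 0 in DESeq2, 1 had an unadjusted p under 0.05 (Wnk4 in vascular nuclei; 6584 of 96030 tests over all genes and units), and the lowest adjusted p was 0.587, for Nedd4l in PCT-like nuclei. Over all genes 0.446% were called in all nuclei, 0.732% in PCT, 0.519% in TAL, 0.315% in DCT1, 0.112% in DCT2, 0.279% in CNT, 0.299% in CCD and 0.109% in vascular nuclei. At ZT16, 0 of 56 passed in either tool, 3 had an unadjusted p under 0.05 in edgeR (Klhl3 in CNT-like and CCD-like and Nedd4l in PCT-like nuclei; 5701 of 96894 over all genes), and the lowest adjusted p was 0.187, for Klhl3 in CNT-like nuclei. The shares over all genes were 0.174% in all nuclei, 0.307% in PCT, 0.154% in TAL, 0.176% in DCT1, 0.237% in DCT2, 0.44% in CNT, 0.139% in CCD and 0.0625% in vascular nuclei. Libraries of the same replicate number deviated together between the genotypes (r = 0.519 at ZT4 and 0.493 at ZT16). The main tests between genotypes did not model this, so their adjusted p may be too large. In the test of whether the time difference depended on genotype, 0 of 56 passed in either tool and 1 had an unadjusted p under 0.05 (Wnk4 in vascular nuclei), with 3940 of 99360 tests over all genes at that level in edgeR, against 0.0183% of all genes called in all nuclei, 0.035% in PCT, 0.0529% in TAL, 0.0447% in DCT1, 0.0193% in DCT2, 0.0612% in CNT, 0.0454% in CCD and 0% in vascular nuclei.

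Averaged over both time points, a contrast also added after the data had been seen, 0 of 56 combinations passed between cKOt and Ctrl in edgeR and 5 had an unadjusted p under 0.05, against 8010 of 99360 tests over all genes and units. The shares over all genes were 0.948% in all nuclei, 1.65% in PCT, 0.906% in TAL, 0.572% in DCT1, 0.356% in DCT2, 1.01% in CNT, 0.473% in CCD and 0.221% in vascular nuclei. DESeq2 passed 1 combination, Nedd4l in PCT-like nuclei (adjusted p = 0.0403), where it called 3.28% of all genes. Its level there was 1082 and 1181 CPM in Ctrl ZT4, 1073 and 1130 CPM in Ctrl ZT16, 936 and 817 CPM in cKOt ZT4, and 822 and 753 CPM in cKOt ZT16. All 4 cKOt libraries were below all 4 Ctrl libraries, by -0.43 ± 0.12 on the log2 scale, with an adjusted p of 0.169 in edgeR's quasi-likelihood test. The summed level of the 5 PST markers, none of them at 0, was also lower in cKOt in these PCT-like nuclei: the ZT4 libraries held 4319-5177 CPM (Ctrl) and 3055-4029 CPM (cKOt), and those of ZT16 held 3648-4339 and 3095-3189 CPM. By the naming rule given below, a PCT-like cluster could score highest for PST. The part of the PST markers in the Nedd4l values was not tested. The PCT-like clusters were unequally split between the genotypes: cluster 9 held 743 to 992 nuclei in each Ctrl library and 1 to 11 in each cKOt library, and cluster 4 held 26 to 283 and 879 to 1171. Within cluster 2 Nedd4l was at 862 to 1182 CPM in Ctrl and 661 to 717 CPM in cKOt, and within cluster 5 at 976 to 1162 CPM and 715 to 954 CPM. In PST-like nuclei, which were not a tested unit, it was at 1969, 1827, 1797 and 1906 CPM in Ctrl and at 1804, 1197, 1355 and 1232 CPM in cKOt, where 1 cKOt library reached the Ctrl range.

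Averaged over both times, the combinations with an unadjusted p under 0.05 in edgeR included 2 more genes in CNT-like nuclei. They were Nedd4l (-0.32 ± 0.12, adjusted p = 0.322) and Wnk1 (0.26 ± 0.12, adjusted p = 0.546). Klhl3 in CNT-like and CCD-like nuclei was also among them, without passing the adjusted threshold. In CNT-like nuclei it was at 300, 433, 376 and 472 CPM in Ctrl and at 484, 455, 694 and 572 CPM in cKOt, with 1 cKOt value inside the Ctrl range, and the difference over both times was 0.45 ± 0.13 on the log2 scale (adjusted p = 0.0966, edgeR). In CCD-like nuclei it was at 118, 77.3, 89.1 and 65.5 CPM in Ctrl and at 126, 110, 131 and 124 CPM in cKOt, a difference of 0.50 ± 0.16 (adjusted p = 0.265). The summed level of the 5 DCT1 markers moved with these values in part: in CNT-like nuclei the ZT4 libraries held 372-568 CPM (Ctrl) and 740-809 CPM (cKOt), and those of ZT16 held 576-580 and 568-630 CPM. In CCD-like nuclei the ZT4 libraries held 320-393 CPM (Ctrl) and 301.5-465 CPM (cKOt), and those of ZT16 held 320-371 and 470-569 CPM. Its part in the Klhl3 values was not tested. In DCT1-like nuclei, where Klhl3 was highest, the difference was -0.14 ± 0.11 (adjusted p = 0.886). In the contrasts averaged over genotypes or times, the log2 fold changes of Cul3 ran from -0.05 to 0.13 and those of Stk39 from -0.13 to 0.30, and none passed.

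**Figure D4:**
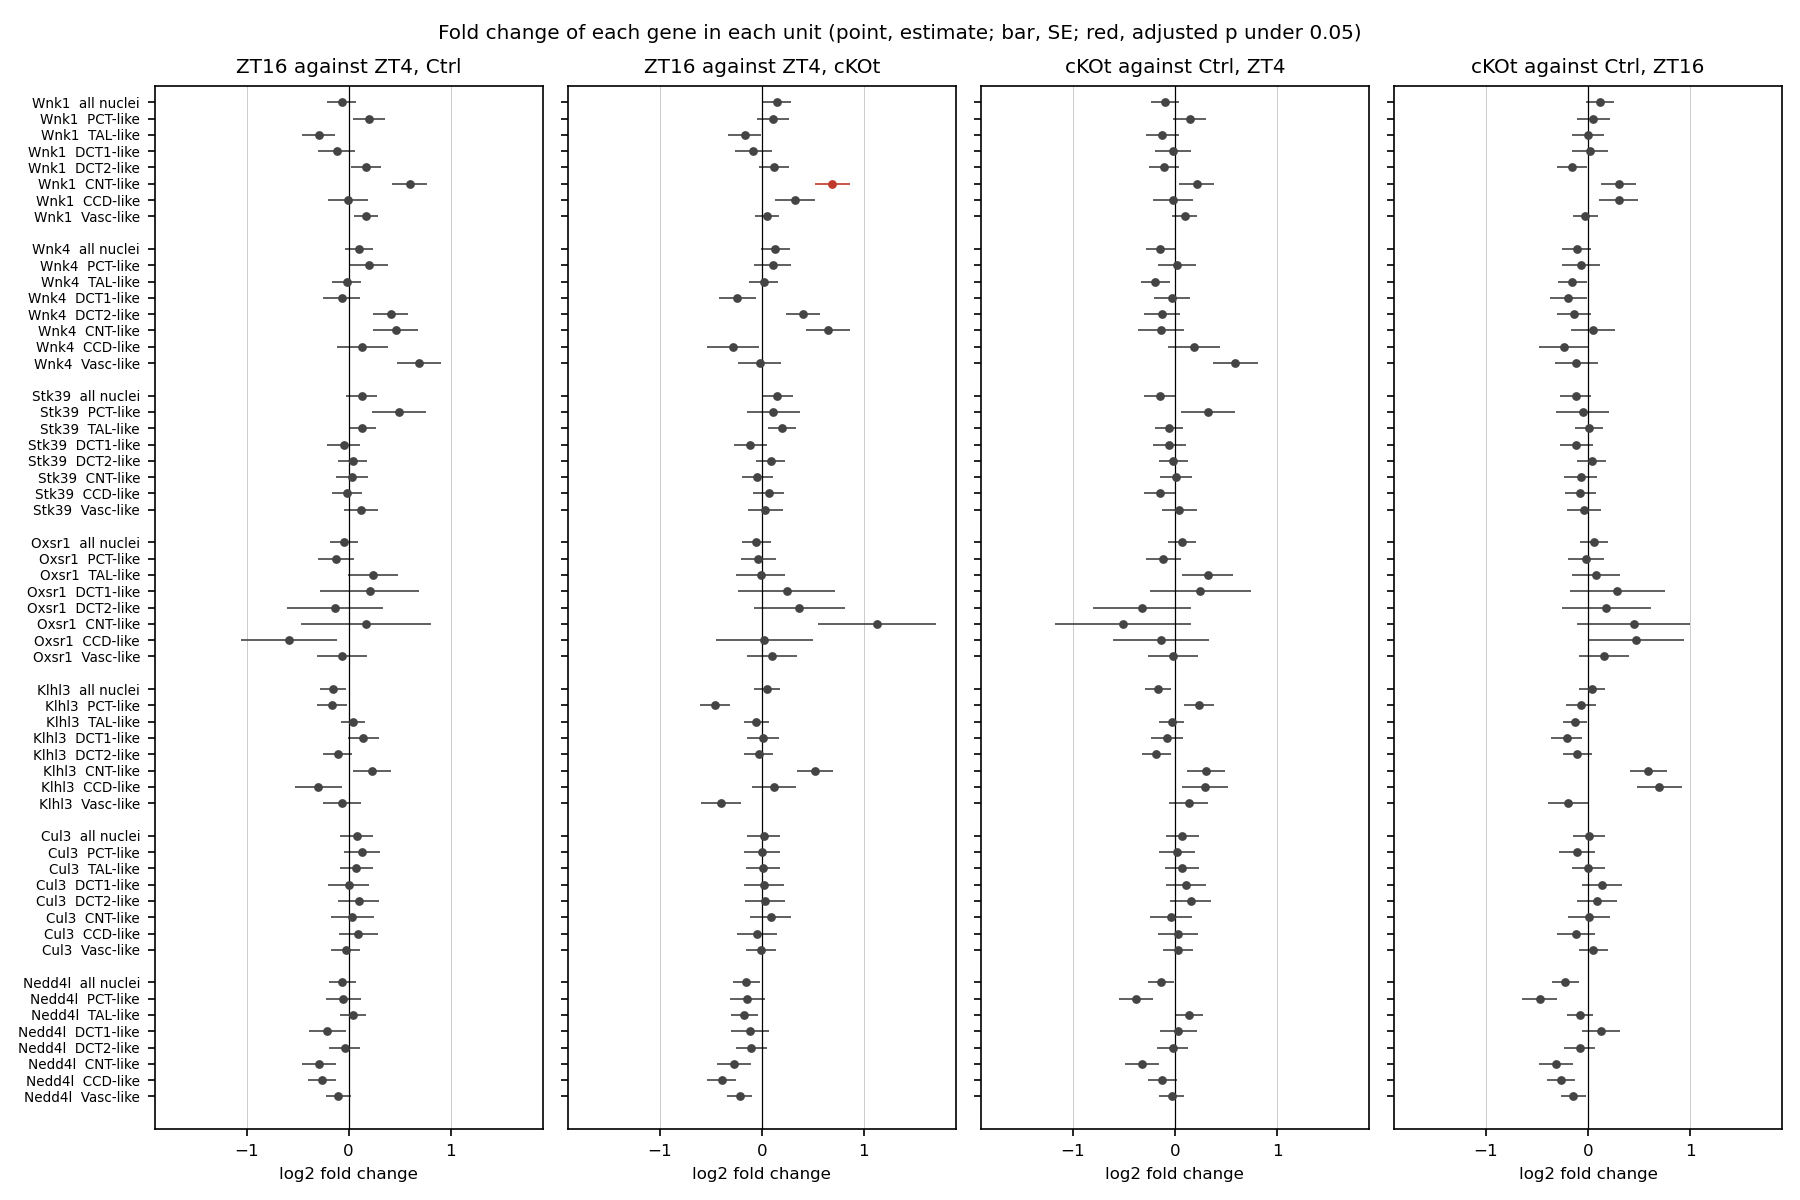
Log2 fold change (x axis; point, estimate; bar, SE) of each gene in each unit (y axis) for the 2 contrasts of time and the 2 of genotype, from the edgeR fit on 8 libraries. Only Wnk1 in CNT-like nuclei of cKOt between ZT16 and ZT4 passes an adjusted p of 0.05 (red); Oxsr1, which has the fewest counts, has the widest bars.

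The other genes of the pathway were taken as lists and tested in the same units. Of the 103 to 104 combinations of 13 cullin and NEDD8 genes with units that were tested in a contrast, 0 passed, with 0 to 3.5% of all genes called in a unit. Likewise 0 passed of the 31 to 32 combinations of the 4 phosphatase genes and of the 10 to 11 of the other WNK kinases, Wnk2 and Wnk3. Among kinase adaptors and WNK body proteins, 1 of 56 combinations passed in Ctrl between the times, Tsc22d1 in DCT1-like nuclei, where 0.843% of all genes did. The count was also 1 of 56 in cKOt between the times and between genotypes at ZT16, and 3 of 56 for time averaged over the genotypes. For genotype averaged over the times it was 1 of 56, where 0.221% to 1.65% of all genes were called in a unit. Each of these combinations was Tsc22d1. In DCT1-like nuclei Tsc22d1, a transcriptional regulator of the TSC22 family, was at 2636 and 2239 CPM in Ctrl ZT4 and at 3908 and 4561 CPM in Ctrl ZT16. That was a rise of 0.81 ± 0.17 on the log2 scale (adjusted p = 0.0281, edgeR). In cKOt it was at 3121 and 2566 CPM (ZT4) and at 4031 and 3912 CPM (ZT16), so that all ZT16 libraries were above all ZT4 libraries. In CNT-like nuclei Tsc22d1 was at 758, 845, 992 and 1077 CPM in Ctrl (ZT4, then ZT16) and at 1095, 988, 2469 and 1649 CPM in cKOt. It rose there with time in cKOt (1.07 ± 0.17, adjusted p = 0.000409, edgeR, with 0.783% of all genes called). It was also higher there in cKOt than in Ctrl at ZT16 (1.00 ± 0.17, adjusted p = 0.00132, edgeR, with 0.44% called). In these nuclei of cKOt the summed CNT, DCT2 and CCD markers rose and the DCT1 markers fell between the times, as given above. Their part in the Tsc22d1 values was not tested. Averaged over the genotypes, Tsc22d1 rose at ZT16 in DCT1-like (0.65 ± 0.12), DCT2-like (0.42 ± 0.11) and CNT-like nuclei (0.74 ± 0.12), with adjusted p of 0.00697, 0.0434 and 0.000291 in edgeR, where 1.93%, 2.05% and 2.06% of all genes were called.

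Of the transport proteins the pathway acts on, Slc12a3 did not pass in DCT1-like nuclei in any contrast. It was at 25030 and 24690 CPM in Ctrl ZT4, 26830 and 22770 CPM in Ctrl ZT16, 24550 and 23810 CPM in cKOt ZT4, and 24540 and 22840 CPM in cKOt ZT16. At ZT4 both cKOt libraries were below both Ctrl libraries, whereas the genotypes overlapped at ZT16 and the times overlapped in each genotype. Slc12a1 in TAL-like nuclei was at 19250 to 24550 CPM in the 8 libraries, with a time difference over both genotypes of 0.01 ± 0.11 on the log2 scale. Scnn1a, the pore subunit of the epithelial sodium channel, was at 236 to 355 CPM in CNT-like nuclei and passed in no contrast.

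Of the combinations of 6 cation-chloride cotransporter genes with units, 1 was higher and 1 lower of 47 in cKOt between the times. The same counts held for time averaged over the genotypes. In cKOt against Ctrl, 1 of 46 was higher at ZT16 and 1 of 47 averaged over the times, and 0 passed in the other contrasts. Over all genes these 4 contrasts called 0 to 3.5% in a unit. Slc12a3 passed outside its own segment, where it was low. In CNT-like nuclei of cKOt it was at 299 and 285 CPM (ZT4) and at 71.8 and 75.3 CPM (ZT16) and fell by 1.89 ± 0.27 on the log2 scale (adjusted p = 8.9e-05, edgeR, with 0.783% of all genes called). Those values rested on cluster 11.3, with 18 and 22 nuclei in the ZT4 libraries of cKOt, where Slc12a3 was at 2093 and 2339 CPM. In the larger CNT-like cluster it was at 75.7 and 57.3 CPM in those libraries, and with 50 principal components in the clustering the difference was 0.16. The call was also lost with doublets removed (adjusted p = 0.0733, edgeR) and in DESeq2 (0.145). In CCD-like nuclei Slc12a3 was at 201 and 250 CPM in cKOt ZT16 and at 56.8 to 74.8 CPM in the other 6 libraries, with a rise of 1.59 ± 0.20 against Ctrl at ZT16 (adjusted p = 0.000106, edgeR, with 0.139% of all genes called). Slc12a3, Scnn1g and Hsd11b2 were among the markers that named these classes.

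When both genotypes were averaged, 2 of 64 combinations of distal channel genes with units passed, both higher at ZT16, and 3 of 32 combinations of hormone input genes passed, 2 higher and 1 lower. Over all genes this contrast called 2.06% in CNT, 3.5% in TAL and 1.8% in vascular nuclei. In CNT-like nuclei Scnn1g, another channel subunit, rose at ZT16 by 0.50 ± 0.12 on the log2 scale (adjusted p = 0.0183, edgeR). Hsd11b2, the enzyme that keeps cortisol and corticosterone off the mineralocorticoid receptor, rose there by 0.64 ± 0.14 (adjusted p = 0.00557, edgeR). Sgk1, whose product inhibits NEDD4-2, fell there by 0.76 ± 0.21 (adjusted p = 0.0452), with 198, 144, 63.6 and 168 CPM in the ZT4 libraries (Ctrl, then cKOt) against 55.2, 98.8, 85.8 and 87.4 CPM in those of ZT16. Replicate 1 of cKOt ZT4 lay within the ZT16 range. In vascular nuclei, which are not targeted, Sgk1 rose by 0.73 ± 0.10 (adjusted p = 0.00186), and in PCT-like nuclei of Ctrl by 1.97 ± 0.31 (adjusted p = 0.0403, with 0.458% of all genes called). Bsnd, the chloride channel subunit barttin, rose in TAL-like nuclei by 0.40 ± 0.10 (adjusted p = 0.0427). Of the other 5 pathway genes studied here, none passed in CNT-like nuclei in this contrast: the log2 difference was -0.00 ± 0.11 for Stk39, 0.65 ± 0.44 for Oxsr1, 0.38 ± 0.13 for Klhl3, 0.06 ± 0.15 for Cul3 and -0.28 ± 0.12 for Nedd4l.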

How the data were processed

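Nuclei of 8 kidneys were sorted by DAPI and sequenced with 10x 3′ v3.1 chemistry. The deposited matrices hold UMI counts per gene and nucleus, made by the authors with Cell Ranger 7.1.0; mm10 is the build in the methods, and GRCm39 the one in the submitters' processing notes. No source states whether intronic reads were counted. The filter on nuclei required 500 or more genes, 800 or more UMIs and no more than 2% mitochondrial UMIs. Nuclei were clustered on 2000 variable genes, chosen without the 7 genes, with 1000 principal components and 20 neighbours at resolution 2.2 (Seurat 5.3.0). Clusters were named from marker lists (a mean z score of 0.9 or more with 3 or more markers raised). A cluster that scored highest for PST was named PCT if it also met these limits for PCT. Libraries shared 18 to 42 barcodes per pair. Doublet calls (4371 nuclei, 5.37%) were kept in the main analysis and removed in an alternative.

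Counts of 21286 protein-coding features were summed per library and unit. Genes reaching 5 counts in each of the 2 replicates of a compared group were tested with edgeR 4.0.16 (TMM, quasi-likelihood) on all 8 libraries, with Benjamini-Hochberg adjustment at 0.05. DESeq2 1.42.0, other scalings and filters, the replicate block, other clustering and the omission of each library were alternatives. All 7 genes were tested in every contrast and are named where called or near the threshold, and list genes where called or where the pathway acts on them. The members and lists were chosen with earlier results of these data known. CPM values carry counting error besides the spread between mice. Promoter sequences came from RefSeq (GRCm38.p6).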

Additional observations from a re-analysis of the deposited data

Results flagged for a closer look

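The time difference of Arntl (Bmal1) itself depended on genotype in the interaction test of edgeR. In PCT-like nuclei the ZT16 minus ZT4 difference was lower in cKOt than in Ctrl by -3.681 on the log2 scale, with 12.1 and 14.8 CPM in Ctrl ZT4, 202 and 200.4 CPM in Ctrl ZT16, 322 and 214 CPM in cKOt ZT4, and 326 and 286 CPM in cKOt ZT16. In TAL-like nuclei the difference was -4.399. None of the 7 pathway genes met this criterion, and groups of 2 libraries are too small for a search for single outlying samples.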

How the results depend on the processing

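Of the values of the 7 genes under the alternatives other than those chosen later, 4193 kept their side of the threshold, 2 passed newly and 5 were lost. Nearly all of these values did not pass in the main analysis either, so the count says little about direction or size. In Ctrl between the times the count of passing combinations went from 0 to 1 with a filter of at least 1 count in any library and with 50 principal components, and to 2 when averaged over both genotypes. In cKOt it went from 1 to 0 with library totals in place of TMM, in DESeq2, and with DCT2-like and CNT-like nuclei summed, and to 2 when averaged over both genotypes; leaving out single libraries gave 0 to 1. The averages and the summed unit were chosen after seeing the data. Replicate numbers were shared between groups, but replicate deviations correlated over 9824 genes between the genotypes at ZT4 (0.519) and at ZT16 (0.493) and less or negatively across the times (-0.304 to 0.228), so a number is shared within a time at most; with the replicate block the counts stayed 0 in Ctrl and 1 in cKOt between the times and 0 in the other contrasts. Over all genes and the 8 units, the calls between the times in Ctrl were 548, against 959 in DESeq2 and 1676 with the filter of at least 1 count; in cKOt they were 218, 495 and 955, between genotypes 357, 834 and 921 at ZT4 and 198, 492 and 701 at ZT16, for the interaction 33, 116 and 198, for time averaged over the genotypes 1625, 2007 and 3521, and for genotype averaged over the times 792, 1234 and 1689. Slc12a3 in CNT-like nuclei of cKOt went from -1.89 to 0.16 on the log2 scale with 50 principal components. The class with the highest level was the same for 7 of 7 genes without doublets, with 50 principal components and as a mean over nuclei, and for 6 to 7 when single libraries were left out. Depth limits Oxsr1 most, and 2 mice per group limit every test.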
